A study of Mesocricetus auratus with 8 samples.

Results

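The genes described here are 10 sialyltransferases, namely *St6gal1*, *St6gal2*, *St3gal1* to *St3gal6*, *St8sia2* and *St8sia4*, in satellite cells (SCs, the stem cells of skeletal muscle) of the Syrian hamster, *Mesocricetus auratus*. They were found by gene symbol in a table of 31581 entries, of which 17590 have values, and all 10 have values. The genes were chosen by family name, and the family was selected on the cold-against-control values of these libraries, in which *St6gal2* was known to be lower after cold, so the cold-against-control values of the 10 genes are a description and not a test. Of the 10, 8 passed the filter on low counts (12506 genes did so in all), and *St6gal1* and *St8sia2* did not.

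Sialyltransferases are Golgi enzymes that move sialic acid from its activated form, CMP-sialic acid, onto the outer ends of the sugar chains of glycoproteins and glycolipids. The linkage depends on the enzyme: ST6GAL enzymes join sialic acid to galactose in alpha-2,6 (α2,6) linkage, ST3GAL enzymes do so in alpha-2,3 (α2,3) linkage, and the polysialyltransferases ST8SIA2 and ST8SIA4 extend alpha-2,8-linked chains, best known on the neural cell adhesion molecule NCAM1. Sialic acids are common on the surface of muscle cells, and in humans mutations in *GNE*, whose enzyme starts their synthesis, cause a myopathy.

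Poly(A) RNA was sequenced from 8 libraries of primary wild-type SCs from the hindlimb muscles of sexually mature male hamsters, 4 in a control group (Normal Temperature) and 4 in a cold group (Cold24hrs), numbered 1 to 4 in each. Cells were purified by preplating and grown on Matrigel. The cold group spent 48 h in growth medium at 37°C, 24 h at 37°C in growth medium with 100 mM HEPES, and a further 24 h at 4°C in the same medium, and the control group was collected at 37°C with no cold exposure. The protocol with the 48 h and the 24 h in HEPES medium is given for all 8 libraries alike, while the control labels themselves name only the culture at 37°C. Titles place all controls at day 3, whereas the treatment labels of control replicates 1 to 4 give 3, 4, 5 and 6 days at 37°C. If the titles hold, no control was kept at 37°C for the added 24 h, and the effects of cold and of the added time cannot be told apart. The study describes the libraries as biological replicates, and the labels do not say whether each number was a separate animal.

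The libraries held 16530747 to 18533801 counts each. SC and myoblast markers were present in all 8 (*Pax7*, *Myf5*, *Myod1*, *Cdh15*, *Itga7* and *Des*, summed level 1754 to 2160 TPM, a level scaled to transcript length and library size, in controls and 1676 to 1981 TPM after cold). The first principal component, 54.5% of the variance, parted numbers 1 and 2 from numbers 3 and 4 in both groups, and the second, 17.9%, parted cold from control. Libraries of the same number deviated from their group means together, and the number was therefore taken to pair a control with a cold library. Changes are given as log2 fold changes from edgeR fits to counts across all genes, cold minus control, without and with the replicate number as a block.

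The α2,3 enzymes made up most of the family's transcripts at 37°C. On the TPM scale, which is per transcript length and so allows levels of different genes to be compared, *St3gal4* was highest, at 43.0 ± 2.90 TPM (SD, n = 4 control libraries), followed by *St3gal6* at 24.2 ± 4.42, *St3gal5* at 20.3 ± 3.47 and *St3gal1* at 11.3 ± 1.62 TPM. *St8sia4* (9.11 ± 4.38 TPM), *St3gal2* (8.90 ± 0.240 TPM) and *St3gal3* (8.34 ± 1.59 TPM) came next, then *St6gal2* at 1.77 ± 0.224 TPM, *St6gal1* at 0.138 ± 0.015 TPM and *St8sia2* at 0.0625 ± 0.0597 TPM. Every control library of *St3gal4* lay above every one of *St3gal6*, and the same separation held between *St3gal5* and *St3gal1*, between *St3gal3* and *St6gal2*, and between *St6gal2* and *St6gal1*. The other neighbours in this order (*St3gal6* and *St3gal5*, *St3gal1* and *St8sia4*, *St8sia4* and *St3gal2*, *St3gal2* and *St3gal3*, *St6gal1* and *St8sia2*) overlapped. Among the genes tested, the mean control level of *St3gal4* stood at percentile 73.5 and that of *St6gal2* at percentile 13.3.

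**Figure D1:**
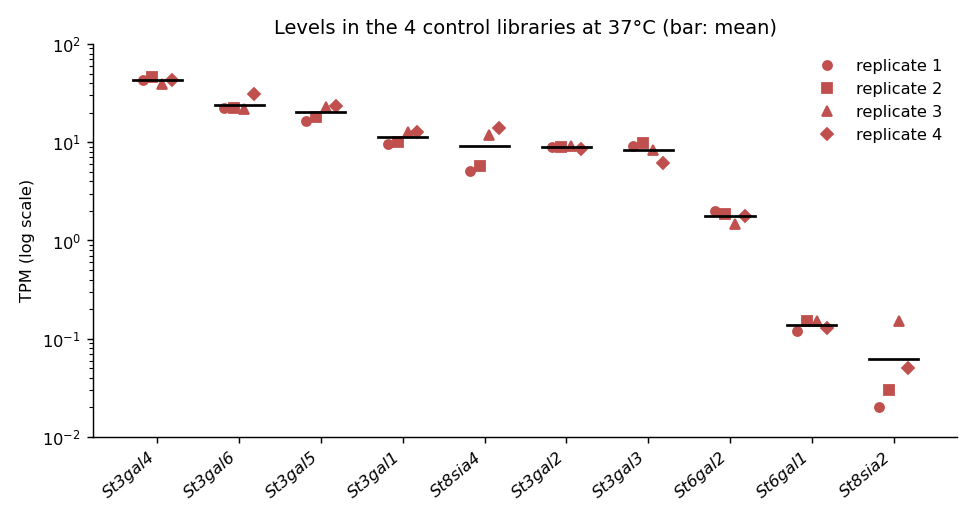
TPM of each sialyltransferase in the 4 control libraries at 37°C on a log axis, with genes ordered by their mean (black bar) and 1 symbol for each replicate number. The level ran from 43.0 TPM for *St3gal4* down to 0.0625 TPM for *St8sia2*, and *St6gal2*, at 1.77 TPM, lay below all 4 control values of *St3gal3* and above all 4 of *St6gal1*.

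*St6gal2*, 1 of the α2,6 enzymes, had lower transcript levels after cold. Its control libraries 1 to 4 held 1.99, 1.85, 1.46 and 1.78 TPM, and its cold libraries 1 to 4 held 0.70, 1.02, 0.78 and 1.02 TPM. The groups did not overlap, the lowest control standing above the highest cold library. These levels rested on 141, 137, 98 and 128 counts in the control libraries and on 52, 72, 55 and 72 counts in the cold libraries. The mean went from 1.77 ± 0.224 to 0.88 ± 0.165 TPM (SD, n = 4 each), and the cold library was lower in 4 of 4 same-numbered pairs, at 0.352, 0.551, 0.534 and 0.573 of its control. Replicate 1 had both the highest control and the lowest cold level.

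The fitted log2 fold change of *St6gal2* was −1.03 (SE 0.176), a change of −51.1%, without the block, and −1.03 (SE 0.135) with it. The gene did not pass an adjusted p of 0.05 without the block and passed it with the block. It also passed without the block when control replicate 3 was left out (log2 fold change −1.13). Without the block, 0 of the 8 sialyltransferases passed (1 at an unadjusted p under 0.05, against 6.7% of all genes in either direction), where 0.072% of all genes were lower and 0.0% higher. DESeq2 called 1 of the 10 lower and 0 higher, beside 0.799% and 0.018% of the 16648 genes with at least 1 count. Genes that its own filter left without an adjusted p, if any, count as not called in these shares. With the block, 1 was lower and 0 were higher, beside 4.07% and 1.26% of all genes. In that fit, 0.808% of all genes were lower with a log2 fold change of −1 or beyond. *St6gal2* was at −0.86 there with pair 1 left out, and stayed past −1 with any other pair left out. Because the gene was known to be lower when the family was selected, nothing follows from these counts about the family.

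*St6gal1*, the other α2,6 enzyme and the main one of liver and B cells, was close to the limit of detection. Its levels were 0.12, 0.15, 0.15 and 0.13 TPM in control libraries 1 to 4 and 0.02, 0.13, 0.09 and 0.07 TPM in the cold libraries. The counts were 6, 7, 7 and 6 in controls and 1, 6, 4 and 3 after cold, 26 against 14 in all. The groups overlapped, cold replicate 2 reaching control replicate 4 and lying above control replicate 1, although each cold library was below its own control. At such counts the gene did not pass the filter on low counts and was fitted only in alternatives with a looser filter.

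**Figure D2:**
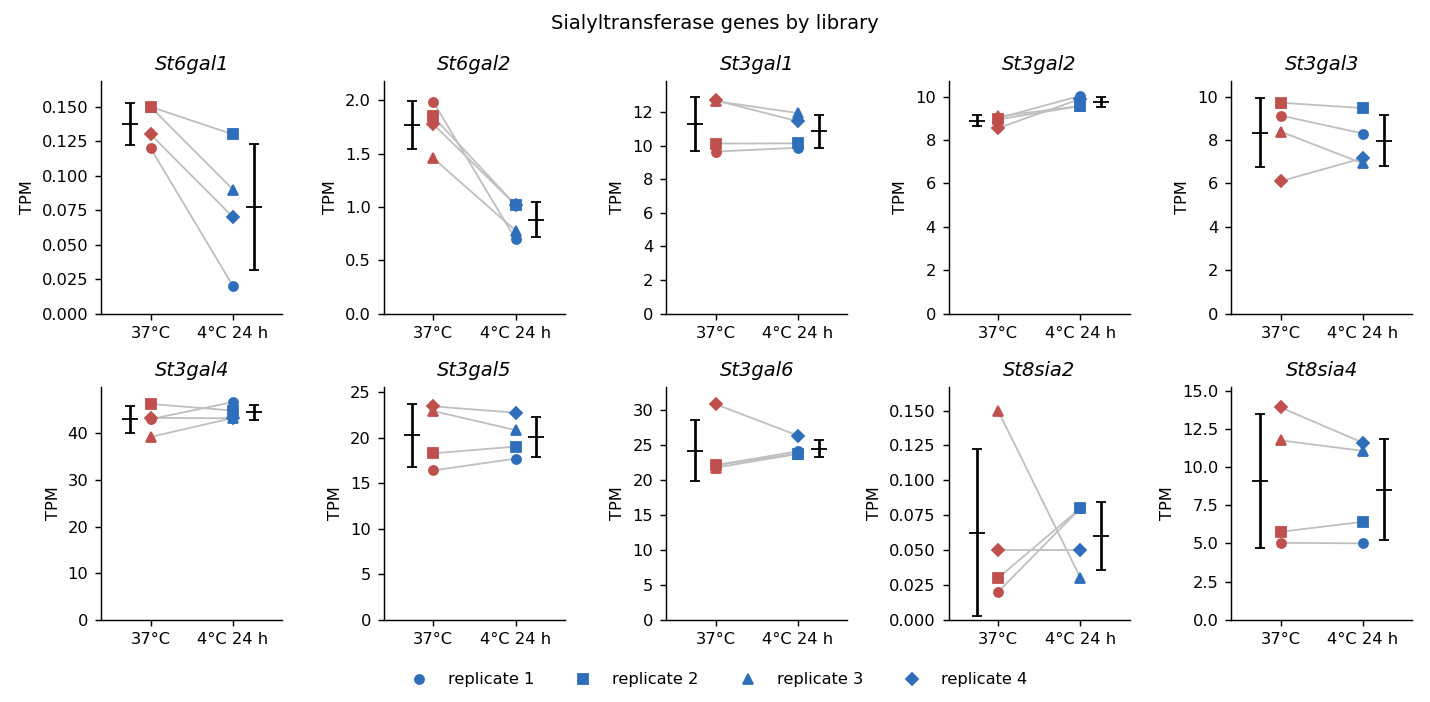
TPM of the 10 sialyltransferases in each library, 37°C controls in red and libraries after 24 h at 4°C in blue, with symbols for the replicate number, grey lines joining libraries of the same number, and black marks for the mean ± SD (n = 4). The 4 cold values of *St6gal2* (0.70 to 1.02 TPM) lie under the 4 controls (1.46 to 1.99 TPM), those of *St3gal2* (9.57 to 10.04 TPM) lie above theirs (8.55 to 9.09 TPM), and the other 8 genes overlap.

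The 6 α2,3 enzymes had log2 fold changes between −0.09 and 0.11 without the block, and some of these changed sign when 1 library was left out. *St3gal2*, which sialylates O-glycans and gangliosides, was the other gene with no overlap between groups, at 9.01, 8.95, 9.09 and 8.55 TPM in controls and 10.04, 9.57, 9.57 and 9.90 TPM after cold. All 4 cold libraries were the higher of their pair, and the mean went from 8.90 ± 0.240 to 9.77 ± 0.238 TPM. The difference was small, with a log2 fold change of 0.11 (SE 0.0654) without the block and 0.12 (SE 0.0627) with it, and passed the threshold in neither fit. Groups without overlap were seen for 2 of the 8 genes, 1 lower and 1 higher after cold, where 2.41% and 2.27% of all genes had such separation downward and upward.

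*St3gal4*, the most abundant of the family, which acts on N-glycans and O-glycans, stood at 43.08, 46.32, 39.25 and 43.34 TPM in controls and 46.73, 44.92, 43.32 and 43.25 TPM after cold. Its groups overlapped, with 2 of 4 pairs lower, and its log2 fold change was 0.03 (SE 0.0486 with the block). *St3gal6*, which acts on chains ending in N-acetyllactosamine, was at 22.11, 22.13, 21.76 and 30.83 TPM in controls and 24.10, 23.76, 23.73 and 26.34 TPM after cold. Replicate 4 was the highest library in each group. Without the block its log2 fold change was 0.0024 (SE 0.102).

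*St3gal5*, the synthase of the ganglioside GM3, was at 16.39, 18.27, 22.92 and 23.43 TPM in controls and 17.69, 19.01, 20.82 and 22.73 TPM after cold. *St3gal1*, which caps the core of O-glycans, held 9.64, 10.12, 12.64 and 12.69 TPM in controls and 9.87, 10.13, 11.93 and 11.44 TPM after cold. In both genes, numbers 3 and 4 were higher than numbers 1 and 2 in each group, and 2 of 4 pairs were lower after cold. Their log2 fold changes with the block were −0.03 (SE 0.0592) for *St3gal5* and −0.07 (SE 0.0488) for *St3gal1*.

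*St3gal3*, which acts on N-glycans and is needed in brain, held 9.13, 9.72, 8.39 and 6.10 TPM in controls and 8.30, 9.47, 6.92 and 7.17 TPM after cold. Here numbers 1 and 2 were the higher in both groups, 3 of 4 pairs were lower after cold, and the log2 fold change was −0.08 (SE 0.0939) with the block.

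**Figure D3:**
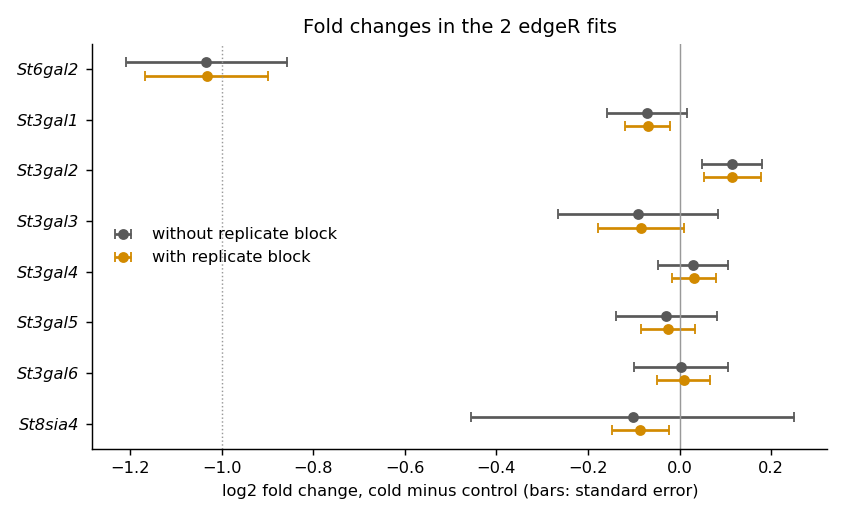
Log2 fold change, cold minus control, of the 8 sialyltransferases that passed the filter on low counts, from the edgeR fits without (grey) and with (orange) the replicate number as a block, with bars for the standard error. *St6gal2* lies at −1.03 in both, and the other 7 lie between −0.10 and 0.12.

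The polysialyltransferases were represented by 1 gene. *St8sia4*, which builds polysialic acid on NCAM1, was at 5.04, 5.76, 11.74 and 13.90 TPM in controls and 5.00, 6.41, 11.05 and 11.58 TPM after cold. The split ran between numbers and not between groups: each library of numbers 3 and 4 was above each of numbers 1 and 2. The log2 fold change with cold was −0.10 (SE 0.352) without the block, and −0.09 (SE 0.0621) once the numbers were in the fit. Without the block it turned to 0.15 when control replicate 4 was left out and to 0.08 without cold replicate 1. *St8sia2*, its relative of the embryo, held 0.02, 0.03, 0.15 and 0.05 TPM in controls and 0.08, 0.08, 0.03 and 0.05 TPM after cold. Its 15 counts in all in each group were too few for the filter on low counts.

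The summed level of the 10 genes was 127 ± 10.2 TPM in controls, between 117 and 141 TPM, and 127 ± 4.85 TPM after cold, between 123 and 134 TPM, lower in 1 of 4 pairs. Within that sum, the share of *St6gal2* went from 1.40% ± 0.251 to 0.691% ± 0.120 (SD, n = 4 each), while that of *St3gal4* was between 30.8% and 38.1% in every library. The α2,6 pair together held 1.91 ± 0.215 TPM in controls and 0.958 ± 0.199 TPM after cold, against 116 ± 6.53 and 118 ± 2.12 TPM for the 6 α2,3 genes. The median log2 fold change of the 8 genes fitted was −0.05, beside 0.0071 for all genes, and was negative in 19 of 21 alternatives.

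Differences between replicate numbers were not used to select the family and were therefore tested, by a term for the 4 numbers in the blocked edgeR fit, a test added after the data were seen. The term asks whether any of the 4 numbers differ, so its p is not that of the ratios given beside it, which set numbers 3 and 4 against 1 and 2. Of the 8 genes, 6 passed an adjusted p of 0.05, where 35.4% of all genes did. *St8sia4* had the widest ratio, with a mean TPM over numbers 3 and 4 that was 2.17 times that over numbers 1 and 2 (adjusted p = 2.60e-09, edgeR quasi-likelihood test with Benjamini-Hochberg adjustment). The corresponding ratios were 1.26 for *St3gal5*, 1.22 for *St3gal1*, 1.11 for *St3gal6*, 0.934 for *St3gal4* and 0.780 for *St3gal3*, with adjusted p of 0.00642, 0.00879, 0.0131, 0.0427 and 0.00753 by the same edgeR test. *St6gal2* (ratio 0.906, edgeR adjusted p = 0.292) and *St3gal2* (ratio 0.988, edgeR adjusted p = 0.689) did not pass.

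**Figure D4:**
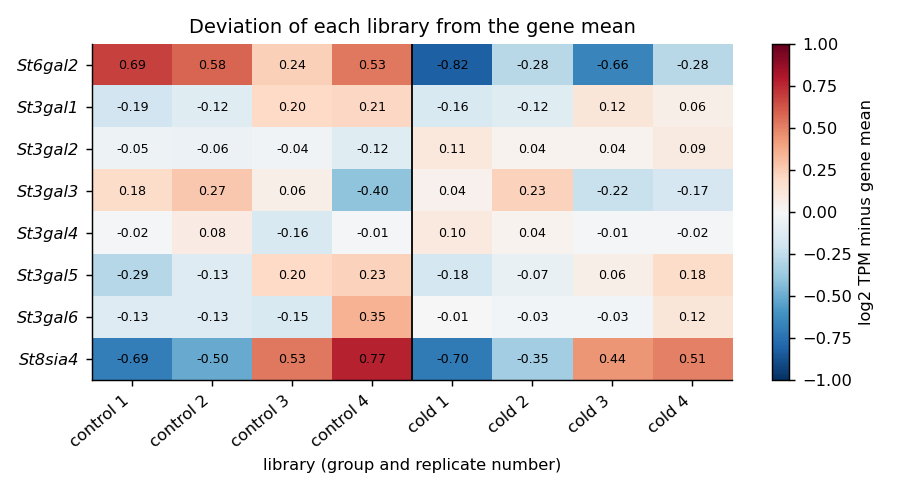
Log2 TPM of each fitted sialyltransferase in each library minus the gene's mean over the 8 libraries, with controls left of the black line and cold libraries right of it. *St6gal2* changes sign at the line, lying between 0.24 and 0.69 in controls and between −0.82 and −0.28 after cold, while *St8sia4* is negative in numbers 1 and 2 and positive in numbers 3 and 4 of both groups.

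Summed marker levels of other cell states and types were set beside these values. The 10 markers of differentiating myocytes (*Myog*, *Mymk*, *Mymx*, *Myh3*, *Acta1*, *Ckm*, *Tnnt1*, *Tnnt3*, *Myl1*, *Myl4*), all detected, summed to 2351 to 4525 TPM in controls and 1156 to 2105 TPM after cold, lower in 4 of 4 pairs like *St6gal2*. The SC and myoblast sum was also lower in 4 of 4 pairs, at 1986 ± 194 TPM in controls and 1831 ± 126 TPM after cold. Of its 6 genes, *Cdh15*, *Itga7* and *Myod1* were called lower in the blocked edgeR fit, beside 4.07% of all genes. Without the block, 0 of the 6 were called. *Pax7* (mean 12.7 TPM in controls and 13.5 TPM after cold) and *Myf5* (147 and 154 TPM) were higher after cold in 3 of 4 pairs. *Des* was lower in 2 of 4 pairs, and these 3 genes were called in neither fit. The part of either list in the *St6gal2* result was not tested, and in bulk RNA fewer cells of a type and less RNA per cell cannot be told apart. The myocyte sum differed between the numbers in controls (replicates 1 and 2 at 4525 and 4502 TPM, replicates 3 and 4 at 2351 and 2502 TPM), and *St6gal2* was at 1.99 and 1.85 TPM in replicates 1 and 2 and at 1.46 and 1.78 TPM in replicates 3 and 4. In cold libraries 1 to 4 this sum was 1815, 2105, 1384 and 1156 TPM, in another order than *St6gal2* at 0.70, 1.02, 0.78 and 1.02 TPM.

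Along the split between numbers, the 7 fibroblast markers (*Pdgfra*, *Col1a1*, *Col3a1*, *Dcn*, *Lum*, *Thy1*, *Dpt*), all detected, summed to 987 to 1062 TPM in numbers 1 and 2 and to 1323 to 1517 TPM in numbers 3 and 4. Of the 7, *Col1a1* did not follow the sum (numbers 3 and 4 at 0.970 times numbers 1 and 2). The 6 leukocyte markers with values summed to 40.9 to 49.5 TPM in numbers 1 and 2 and 75.3 to 105 TPM in numbers 3 and 4, with 3 of them, the leukocyte antigen *Ptprc* included, under 1 TPM in every library. Both of these sums were higher in the 4 libraries in which *St8sia4* was higher, and their part in its levels was not tested. The sum of 5 endothelial markers was low but split in the same way, at 2.02 to 2.58 TPM in numbers 1 and 2 and 2.78 to 3.95 TPM in numbers 3 and 4. Schwann cell markers summed to 2.93 to 4.57 TPM, and mural cell markers summed to 36.4 to 62.9 TPM, highest in replicate 4 of each group.

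The 5 genes whose course over the 8 libraries was closest to that of *St6gal2*, by root-mean-square difference of centred log2(TPM + 0.1) among 10486 candidates, were *Depp1* (difference 0.0873), *Dysf* (0.131), *Pgam2* (0.134), *Kiaa1614* (0.135) and *Myoz1* (0.138). *Dysf* encodes dysferlin, which reseals the muscle membrane, *Pgam2* the muscle phosphoglycerate mutase, *Myoz1* a Z-disc protein, and *Depp1* a protein that responds to FOXO factors. Their mean TPM went from 23.0 to 10.9 for *Depp1*, from 4.16 to 2.15 for *Dysf*, from 103 to 52.4 for *Pgam2*, from 10.9 to 6.18 for *Kiaa1614* and from 2.55 to 1.36 for *Myoz1*. Likeness was measured over the same libraries in which *St6gal2* differed between groups, so lower levels after cold are built into this choice.

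The other sialyltransferases of the hamster did not pass the test in either direction. Of 10 such genes in the table, 9 have values and 5 could be fitted, and 0 of the 5 were called without or with the block (edgeR). At an unadjusted p under 0.05 there were 0 without the block and 2 with it, where 18.2% of all genes reached this with the block. *St6galnac4*, which adds sialic acid to O-glycans and is the most abundant of them, was at 24.57, 26.99, 19.56 and 17.77 TPM in controls and 22.13, 21.13, 18.58 and 16.95 TPM after cold. It was lower in 4 of 4 pairs with overlapping groups, at a log2 fold change of −0.18 (SE 0.0656, edgeR adjusted p = 0.126 with the block). With a pair left out of that fit it ran from −0.11 (without pair 2) to −0.24 (without pair 4, where it passed the threshold). *St6galnac6*, of the same family, was at 10.2 ± 0.985 and 11.1 ± 0.987 TPM.

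*St8sia1*, which makes the ganglioside GD3 from the product of ST3GAL5, repeated the split of *St8sia4*, at 0.78, 0.62, 1.84 and 1.90 TPM in controls and 0.65, 0.83, 1.97 and 1.86 TPM after cold. Numbers 3 and 4 were 2.63 times numbers 1 and 2 (edgeR adjusted p = 7.58e-07), and the log2 fold change with cold was 0.04 (SE 0.116 with the block). *St6galnac2* was at 1.17 ± 0.427 and 1.25 ± 0.265 TPM. *St8sia5* was lower in 4 of 4 pairs, with overlapping groups and a log2 fold change of −0.63 (SE 0.296, edgeR adjusted p = 0.267 with the block). Without the block and with 1 library left out, this ran from −0.31 (without control replicate 1) to −0.84 (without control replicate 4). *St8sia5*, *St6galnac3* and *St8sia6* were at or under 0.18 TPM in every library, and *St6galnac1* and *St6galnac5* were at 0 in all 8, where a count of 0 allows up to 0.162 to 0.181 CPM, the count scaled to library size (3 counts, counting error only).

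Genes that make and activate sialic acid, remove it, or build the chains it is added to were read from the same fits. Together with the sialyltransferases above these were 54 genes, of which 49 had values and 43 could be fitted. Without the block, 0 were called in either direction (edgeR, with 0.072% of all genes lower and 0.0% higher). At an unadjusted p under 0.05 there were 2, *Ctsa* and *Neu2*, where 6.7% of all genes reached this. DESeq2 also called 0 in either direction, beside 0.799% lower and 0.018% higher of all genes with at least 1 count. With the block, 1 was lower and 0 were higher, beside 4.07% and 1.26% of all genes. Their median log2 fold change was 0.02, and 0 of the 43 had groups without overlap, beside 2.41% of all genes downward and 2.27% upward. The number of the library mattered for 24 of the 43, beside the 35.4% of all genes.

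**Figure D5:**
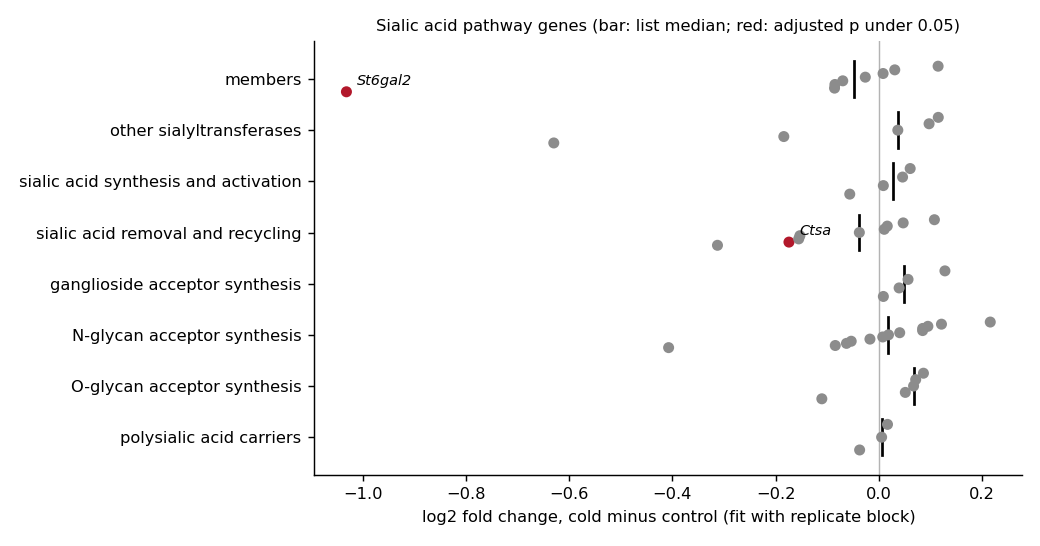
Log2 fold change, cold minus control, in the blocked edgeR fit for the sialyltransferases described here (top line, named members in the plot) and for the fitted genes of 7 pathway lists, with a black bar at each list's median and red points for an adjusted p under 0.05. *St6gal2* at −1.03 and *Ctsa* at −0.17 are the red points, and the list medians lie between −0.05 and 0.07.

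The 1 pathway gene called, in the blocked fit alone, was *Ctsa*, encoding the protective protein cathepsin A, which stabilises lysosomal sialidase and beta-galactosidase. It held 129, 136, 157 and 145 TPM in controls and 118, 113, 141 and 137 TPM after cold, with overlapping groups and 4 of 4 pairs lower. The log2 fold change was −0.17 (SE 0.0444), with an edgeR adjusted p of 0.0254 in the blocked fit and 0.732 without the block, and an exact two-sided permutation test of the TPM gave p = 0.2, where 0.0286 is the smallest p possible. With a pair left out of the blocked fit, *Ctsa* was called without pair 1 or 4 and not without pair 2 (log2 fold change −0.13) or pair 3 (−0.19). Among the sialidases, *Neu2*, named here after its values were seen, was at 7.66 ± 0.741 and 6.33 ± 0.663 TPM with a log2 fold change of −0.31 (edgeR adjusted p = 0.0618 with the block and 0.503 without).

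In sialic acid synthesis, *Nanp*, *Cmah* and *Renbp* had no entry under these symbols. The other 4 of 7 genes were fitted, and 0 passed in either fit. *Nans*, the sialic acid synthase and the most abundant of them, held 73.5 ± 4.39 and 76.6 ± 2.42 TPM (exact permutation p = 0.286) and was higher after cold in 4 of 4 pairs. Chosen after its values were seen, *Gne*, the entry enzyme, differed among the 4 numbers (edgeR adjusted p = 2.01e-06), with a mean over numbers 3 and 4 that was 1.48 times that over numbers 1 and 2, and its log2 fold change with cold was 0.06 (SE 0.0490).

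Over the 8 libraries, the most abundant gene of each list of acceptor enzymes was *B4galt5*, the lactosylceramide synthase, at 43.2 ± 5.77 and 47.7 ± 3.10 TPM (exact permutation p = 0.2; in controls *Ugcg*, at 43.7 ± 7.37 TPM, had the higher mean), *Mgat4b*, an N-glycan branching enzyme, at 84.1 ± 5.24 and 87.5 ± 5.84 TPM (exact permutation p = 0.371), and *Galnt1*, which starts O-glycans, at 63.8 ± 1.43 and 67.0 ± 4.54 TPM (exact permutation p = 0.257). The permutation test does not use the pairs: *B4galt5* and *Mgat4b* were higher after cold in 4 of 4 pairs, and *Galnt1* in 3 of 4. None of the 22 fitted genes of these lists was called in either fit. Of the 3 carriers of polysialic acid, *Ncam1* was the most abundant, at 339, 340, 315 and 301 TPM in controls and 346, 344, 296 and 286 TPM after cold (exact permutation p = 0.743). Libraries of numbers 1 and 2, where *St8sia4* was low, had the higher *Ncam1* levels in both groups, and the mean over numbers 3 and 4 was 0.874 times theirs (edgeR adjusted p = 2.70e-05).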

How the data were processed

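Libraries made with a poly(A) kit were sequenced as paired ends. HISAT and HISAT2 are named in the submitters' processing notes, and the counting program, annotation and genome build are not given in the sources used here. The authors deposited 1 table with expected counts per gene (not normalized, some with decimals), TPM rounded to hundredths, and normalized counts, a signal that the authors made from the count rounded up times 1 factor per library. The last were not used in any test. The identifiers of the 20 sialyltransferases matched RefSeq annotation BCM_Maur_2.0 under the same symbols, and no coordinates or sequences were used.

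Expected counts were rounded, filtered with filterByExpr and tested in edgeR 4.0.16 (R 4.3.3; TMM, quasi-likelihood F test, Benjamini-Hochberg adjustment over 12506 genes), with the group alone as the main model. Standard errors were taken from the fold change and its F statistic. Single pathway genes were compared by TPM in exact two-sided permutation tests over 70 arrangements. The edgeR fits without and with the block were tested on simulated counts. Alternatives were the replicate block, DESeq2 1.42.0, RLE factors, library totals, looser and stricter filters, limma 3.58.1 on log2 TPM, and leaving out libraries.

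The genes and lists were chosen with earlier results of these data known. The text names the 10 genes, every other sialyltransferase with values, and from each pathway list the genes past an adjusted p of 0.05 in either fit (at most 4) and the one with the highest mean TPM, plus the 5 genes most like *St6gal2*. Fitted genes needed a mean of at least 1 TPM and a named symbol to be compared with *St6gal2*. The replicate numbers come from the titles. Correlations across genes of deviations from the group means were 0.61, 0.62, 0.65 and 0.66 for the same number, above the 0.1 required to treat them as pairs. Numbers 1 with 2, and 3 with 4, also correlated across groups, at 0.43 to 0.59, and much of the pairing is thus the split between 1 and 2 and 3 and 4. A term for the replicate number was tested after the data were seen. No library was taken for a deposited duplicate, since libraries of 1 group differed by more than counting noise (chi-square per gene 2.44 for controls 1 and 2, up to 27.0 for controls 1 and 4), which does not show that they are separate animals.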

Additional observations from a re-analysis of the deposited data

Results flagged for a closer look

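In 46 groups of 4 libraries, 1 group for each gene and condition, 5 had 1 library isolated from the other 3, where chance gives about 1 in 20 groups, or 2.3 here. *St3gal6* was isolated in replicate 4 of both groups, with 30.83 TPM among controls and 26.34 TPM among cold libraries, each above the other 3. The other isolated libraries were cold replicate 4 of *St6galnac6* at 9.64 TPM, below the others, control replicate 1 of *Galnt1* at 65.89 TPM, above the others, and control replicate 1 of *St8sia6* at 0 TPM, where the others held 0.01 TPM. For *St8sia6* this was 0 counts against 1 count in each other control, with TPM rounded to hundredths. Its place among the 5 is therefore not informative.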

How the results depend on the processing

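*St6gal2* was lower after cold in all 21 alternatives, with a log2 fold change between −1.13 and −0.56 (the latter with limma and a pseudocount of 1 TPM), and passed an adjusted p of 0.05 in 7 of them. Without control replicate 3 it passed, at −1.13. The number of the 10 genes called lower was 0 without the block, 1 with the replicate block, 1 with DESeq2, and 0 to 1 when each library was left out. In the fit with the replicate block it was 1 whichever of the 4 pairs was left out. The number of pathway genes called lower was 0 without the block, 1 with the replicate block, and 0 to 2 when a pair was left out of the blocked fit. Without pair 4, 2 were lower and 1 was higher, against 0 to 1 higher over the pairs left out. Of 168 values of the 8 fitted sialyltransferases, 20 changed sign, 7 (*St6gal2*) crossed the threshold toward a call and 3 moved beyond the replicate SD without a change of sign, and of 225 values of the named pathway genes 14, 4 and 12 did so. No value that changed sign passed the threshold before or after. With 1 library left out, log2 fold changes ran from −0.23 to 0.00089 for *St3gal3*, −0.031 to 0.079 for *St3gal4*, −0.11 to 0.028 for *St3gal5*, −0.060 to 0.12 for *St3gal6*, −0.29 to 0.15 for *St8sia4*, −0.13 to 0.27 for *St6galnac2*, −0.21 to 0.27 for *St8sia1*, −0.0074 to 0.080 for *Nans*, −0.020 to 0.086 for *Mgat4b* and −0.090 to 0.013 for *Ncam1*. *St3gal6* was also at −0.00049 with RLE factors and −0.0037 without a filter. In the fit with the replicate block and a pair left out, sign changes were −0.0049 for *St3gal4* and 0.012 for *St3gal5* (pair 3), −0.018, −0.012 and −0.031 for *St3gal6* (pairs 1, 2 and 3), −0.0060 and −0.028 for *St6galnac2* (pairs 2 and 4), −0.037 for *St8sia1* (pair 2) and −0.0041 for *Nans* (pair 4). The median of the 8 sialyltransferases ran from −0.073 to 0.020, positive without control replicate 4 or cold replicate 1, and that of the pathway genes from −0.014 to 0.040. Genes called over all of those tested were 9 lower and 0 higher without the block, 509 and 158 with it, 133 and 3 with DESeq2, 14 lower with library totals, 25 without a filter beyond 1 count, 4 with the stricter filter and 4 with limma. Leaving out single libraries gave 0 (without control replicate 4, or cold replicate 1, 3 or 4) to 45 lower (without control replicate 3). The order of levels at 37°C kept 7 to 10 of 10 ranks when a control was left out. The cause of these shifts was not tested. Depth limits *St6gal1* and *St8sia2*, with at most 7 counts per library for the first and 15 in all per group for the second.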
